A study of Mus musculus with 9 samples.

Results

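The regions described here were Hdac1 binding regions present in all 3 haemogenic endothelium lines of the study at which the Hdac2 library of the line Hd2lox had no peak. There were 1533 of them among 24761 merged regions in all. They were chosen by measured peak positions: peaks of the 6 lists were merged where they overlapped by 1 bp or more on chromosomes 1 to 19, X and Y, a merged region belonged to the Hdac1 core when all 3 Hdac1 lists had a peak in it, and it was kept when the Hd2lox Hdac2 list had none. The core held 3214 regions, so 47.7% of it lacked Hd2lox Hdac2, a share fixed by the rule. The other 1681 core regions, with an Hd2lox Hdac2 peak, are the comparison throughout.

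ChIP-seq, the sequencing of DNA pulled down with an antibody to a chromatin protein, was done on haemogenic endothelium, the endothelium from which blood cells emerge, differentiated in culture from mouse C57BL/6 embryonic stem (ES) cells. Cells of the ES line Bry were at passage 16 to 19, while Hd1_loxlox and Hd2lox cells were at passage 25 to 30. No line is recorded as treated, and the labels name no Cre driver or recombination for the lox alleles. Each line gave 1 library with an Hdac1 antibody from Diagenode, 1 with an Hdac2 antibody from abcam and 1 input, 9 libraries in all. Whether the lines were handled as separate experiments is not recorded, so the spread between lines may be technical in part. Each peak list gives positions only, with no score or read count, so the depth is unknown, the inputs were not analysed here, and a region without a peak is one where none was called. Peak positions do not measure transcripts, so the identity of the cells was not checked against expression of their markers.

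Hdac1 and Hdac2 are class I histone deacetylases, enzymes that remove acetyl groups from histone tails. They are close paralogues and act as the catalytic subunits of the same Sin3, NuRD and CoREST complexes, in which either enzyme can be present. These complexes are recruited by transcription factors, and in mammalian cells the enzymes are found at repressed genes and also at active CpG island promoters.

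The regions lay mostly at CpG-rich promoters. RefSeq promoter sequences (GRCm38.p6, the assembly of mm10), each running from 250 bases before an annotated start to 50 after it, were available for 17492 of 21887 protein-coding genes. The sequences below are starts inside the regions ranked highest by Hdac1 peak width among those with a sequence in this table, and they show the range from CpG-rich to CpG-poor. The first 4 come from regions with no Hdac2 peak in any line and the last 2 from regions with Hdac2 in Bry. Letters run 5′ to 3′ on the gene's strand, and capitals mark each GGGCGGGG, the SP box, read on either strand.
Rpl23 start, chr11:97782390-97782689, minus strand: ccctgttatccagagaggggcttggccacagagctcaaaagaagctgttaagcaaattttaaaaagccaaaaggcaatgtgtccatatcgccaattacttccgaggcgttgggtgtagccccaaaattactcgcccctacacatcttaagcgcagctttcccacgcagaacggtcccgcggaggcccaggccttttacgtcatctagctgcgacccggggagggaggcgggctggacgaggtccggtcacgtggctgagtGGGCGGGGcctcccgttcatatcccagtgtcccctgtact
Dazap2 start, chr15:100615412-100615711, plus strand: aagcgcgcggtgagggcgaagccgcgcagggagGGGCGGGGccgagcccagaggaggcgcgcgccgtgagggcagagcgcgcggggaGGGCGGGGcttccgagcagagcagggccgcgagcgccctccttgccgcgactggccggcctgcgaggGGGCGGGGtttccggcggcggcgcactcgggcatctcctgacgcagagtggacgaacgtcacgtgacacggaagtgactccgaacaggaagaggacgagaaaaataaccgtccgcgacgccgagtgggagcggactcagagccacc
Naa50 start, chr16:44139559-44139858, plus strand: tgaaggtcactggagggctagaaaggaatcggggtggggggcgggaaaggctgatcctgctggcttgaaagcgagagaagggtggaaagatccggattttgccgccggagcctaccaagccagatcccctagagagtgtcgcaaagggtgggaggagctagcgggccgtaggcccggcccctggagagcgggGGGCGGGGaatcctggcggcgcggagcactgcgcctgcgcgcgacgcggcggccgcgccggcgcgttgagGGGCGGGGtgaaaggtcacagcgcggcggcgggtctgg
Cert1 start, chr13:96542485-96542784, plus strand: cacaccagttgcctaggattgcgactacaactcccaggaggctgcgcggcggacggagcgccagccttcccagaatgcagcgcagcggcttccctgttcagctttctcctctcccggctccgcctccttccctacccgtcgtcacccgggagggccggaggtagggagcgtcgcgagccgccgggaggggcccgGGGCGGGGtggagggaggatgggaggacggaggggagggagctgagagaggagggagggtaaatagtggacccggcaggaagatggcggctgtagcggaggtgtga
Vasp start, chr7:19271805-19272104, minus strand: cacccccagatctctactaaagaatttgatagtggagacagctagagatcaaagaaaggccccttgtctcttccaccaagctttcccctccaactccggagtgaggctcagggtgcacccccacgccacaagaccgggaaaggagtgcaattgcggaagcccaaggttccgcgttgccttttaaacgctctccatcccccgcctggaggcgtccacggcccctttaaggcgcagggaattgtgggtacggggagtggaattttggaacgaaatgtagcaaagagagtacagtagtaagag
Sh2b3 start, chr5:121836055-121836354, minus strand: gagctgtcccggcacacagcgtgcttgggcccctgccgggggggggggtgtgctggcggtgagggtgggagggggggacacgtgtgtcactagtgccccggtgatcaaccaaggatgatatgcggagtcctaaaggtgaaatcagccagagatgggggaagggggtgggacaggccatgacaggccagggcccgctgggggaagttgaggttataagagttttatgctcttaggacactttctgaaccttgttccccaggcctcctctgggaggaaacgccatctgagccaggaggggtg

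Rpl23 encodes a protein of the large ribosomal subunit, Naa50 an N-terminal acetyltransferase, Cert1 a ceramide transfer protein, Vasp an actin filament regulator and Sh2b3 a negative regulator of cytokine receptors in blood cells. The Dazap2 window held 3 SP boxes, Naa50 had 2, and Rpl23 and Cert1 had 1 each. No SP box was found in the Vasp and Sh2b3 windows. GC content was 72.3% at Dazap2, 69.3% at Naa50, 68.3% at Cert1, 57% at Rpl23, 54.3% at Vasp and 61.7% at Sh2b3. These 6 windows were taken by Hdac1 width rank and do not describe their classes. Composition was not compared between regions with and without Bry Hdac2. The ratio of observed to expected CpG was 1.14 at Dazap2, 0.974 at Naa50, 0.741 at Cert1, 0.739 at Rpl23, 0.587 at Vasp and 0.344 at Sh2b3. The Sh2b3 window was thus the poorest of the 6 in CpG, although it was not the lowest in GC. Its start, at position 121836104, lies inside the gene, whose outer end on this strand is at 121837645. The window therefore does not describe the promoter at the outer start of Sh2b3.

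Over all 1576 annotated starts inside the regions, median GC content was 68.3%, with quartiles of 62% and 73.3%, and the median CpG ratio was 0.889. The 21263 starts of all protein-coding genes had medians of 56.3% and 0.567. A window with at least 55% GC and a CpG ratio of at least 0.6 was found at 85.5% of the starts in the regions and at 41.0% of all starts. In the comparison regions, 1563 starts had a median GC content of 70%, a median CpG ratio of 0.901 and a CpG-rich share of 88.7%, so the regions without Hd2lox Hdac2 were slightly lower on all 3 measures. The GC difference of -1.67 percentage points became -6.33 when a peak of the Hd2lox Hdac1 list was no longer required.

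Letter patterns of promoter motifs were counted in the same windows on both strands, as matches and not as binding sites. The SP box was present at 47.6% of starts in the regions, at 44.8% in the comparison regions and at 23.6% of all starts. CCGGAAG, an ETS factor motif, was at 18.7%, 14.3% and 11.6% of these starts in the same order. GCGCANGCG, from the palindrome bound by NRF1, was at 19.0%, 16.3% and 8.58%. These 3 patterns were more frequent in the regions than over all starts, as was the E-box CACGTG, at 12.1%, 12.2% and 7.84%. TATAAA, the TATA box, was at 4.12% of starts in the regions, 3.14% in the comparison regions and 12.6% of all starts. CCAAT was at 31.3%, 29.5% and 38.2%, and TGTGGT, bound by Runx factors, was at 9.58%, 6.59% and 15.0%. TGANTCA, the AP-1 site, was at 2.66%, 3.45% and 6.99% of starts, and AGATAAG, which Gata1 and its relatives bind, at 1.08%, 0.512% and 2.64%. These 5 patterns were rarer in the regions than over all starts. TGACGTCA, the cAMP response element, was at 2.73%, 2.94% and 2.23%, and TTTCCCGC, an E2F motif, at 1.90%, 2.43% and 1.41%. Median GC was 68.3% at starts in the regions and 56.3% over all starts, and the part of base composition in the motif shares was not tested.

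Most of the regions had an Hdac2 peak in Bry and few had one in Hd1_loxlox. The Bry Hdac2 list, used in merging peaks but not in keeping or dropping regions, had a peak at 1395 of the 1533 regions, or 91.0% (Wilson 95% interval 89.5 to 92.3). Over the whole core this share was 91.7%, and in the comparison regions it was 92.3% (1552 of 1681, 91.0 to 93.5). The difference was -1.33 percentage points with a 95% interval of -3.26 to 0.584, which includes 0. It became -8.14 points when the Hd2lox Hdac1 peak was not required. With 1 library per line and antibody there is no test over samples, and all such intervals cover counting error only.

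The Hdac2 library of Hd1_loxlox had peaks at few of the regions. It covered 62 of them, or 4.04%, beside 5.29% of the core and 6.42% of the comparison regions (108). The difference was -2.38 points (-3.93 to -0.837). Its list was also the shortest of the 6, with 5161 peaks against 9279 for Bry Hdac2 and 9082 for Hd2lox Hdac2, while the 3 Hdac1 lists had 7671 in Bry, 7490 in Hd1_loxlox and 7519 in Hd2lox. Of the merged regions with an Hd1_loxlox Hdac2 peak, 3.72% had an Hd2lox Hdac2 peak, against 24.9% of those with Bry Hdac2. The part of list length, or of any other property of this library, in these shares was not tested.

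By combination of Hdac2 lists, 1336 regions had Bry Hdac2 alone, 59 had the Bry and Hd1_loxlox Hdac2 peaks, 3 had Hd1_loxlox Hdac2 alone and 135, or 8.81%, had no Hdac2 peak in any line. In the comparison regions the same classes, beside their Hd2lox Hdac2 peak, held 1447, 105, 3 and 126 regions. A peak of Bry Hdac2 alone was the commonest state in each group.

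**Figure D1:**
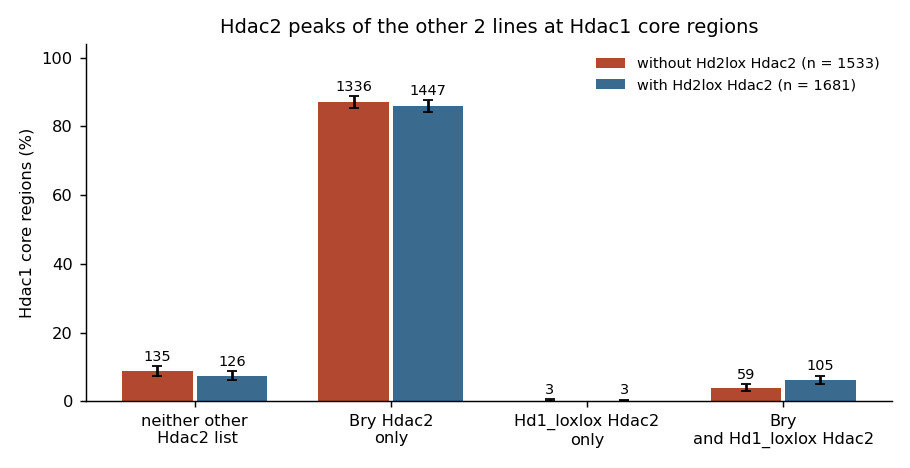
Share of Hdac1 core regions (y axis, percent) with each combination of Hdac2 peaks from the lines Bry and Hd1_loxlox (x axis), for the 1533 regions without Hd2lox Hdac2 (red) and the 1681 with it (blue). Bars carry Wilson 95% intervals for counting error and the number of regions. The class with Bry Hdac2 alone holds 1336 of the red and 1447 of the blue regions.

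The Hdac1 and Hdac2 peaks of Bry shared most of their bases in most of the regions that had both. They overlapped in 1393 of these 1395 regions, which is largely built in, since regions were made by merging overlapping peaks. The Hdac2 peak covered a median of 89.5% of the Hdac1 peak, with quartiles of 75.6% and 98.8%. In the comparison regions the median was 92.0%. The 3 Hdac1 peaks shared a common stretch in 1527 of the 1533 regions, with a median length of 1143 bp, so merging by chained overlap made few of them. The comparison regions shared a median of 1253 bp.

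Peaks of the Hd2lox Hdac2 list seldom lay close to the regions. Positions alone cannot show signal at a region too weak to be called. The nearest peak of that list was a median of 68097 bp away, with quartiles of 29426 and 136168 bp. It lay within 1000 bp of 9 regions, within 5000 bp of 52 and within 10000 bp of 132. The nearest 3 were 475 bp from the region at Bcl11b, a zinc finger factor of T cell development, 514 bp at Isyna1, which makes inositol phosphate, and 564 bp at Ercc2, a helicase of DNA repair. On the other side of the rule, the largest overlap of an Hd2lox Hdac2 peak with an Hdac1 peak was taken per region. The smallest of these was 635 bp, at the Notch ligand gene Jag1. Next came 760 bp at Cops5, a COP9 signalosome subunit, and at Arfgef1, an exchange factor for Arf proteins. At both, 760 bp was the whole Hd2lox Hdac2 peak, and no peak of that list was narrower. Each of the 1681 comparison regions held an Hd2lox Hdac2 peak that overlapped an Hdac1 peak.

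Peak width was the only size the lists allow, and here the lines differed. In Bry the Hdac1 peaks of the regions had a median width of 1584 bp against 1573 in the comparison regions, a difference of 11 bp. In Hd1_loxlox the medians were 1621 and 1684 bp, a difference of -63 bp. In Hd2lox they were 1422 and 1625 bp, a difference of -203 bp. The regions were therefore narrower in Hd2lox and of nearly the same width in Bry. Over the 3 lines the mean difference was -85 bp ± 109 (SD, n = 3) and did not pass an exact two-sided sign-flip permutation test (p = 0.5, where the smallest value 3 lines allow is 0.25). With means in place of medians the differences were -25.3, -100 and -225 bp, so the sign in Bry depends on this choice (exact permutation p = 0.25).

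Expressed as a percentile within the whole list, which removes differences in width between lists, the median Hdac1 peak of the regions was at percentile 66.4 in Bry, 61.7 in Hd1_loxlox and, in Hd2lox, 48.1. The comparison regions had 65.6, 66.2 and 64.4. The Bry Hdac2 peaks of the regions had a median of 1555 bp (quartiles 1250 and 1950.5), against 1653 bp (1322.5 and 2069.25) in the comparison regions, a difference of -98 bp that became -211 bp without the requirement of an Hd2lox Hdac1 peak and -47.5 bp without that of Bry Hdac1. Where Hd1_loxlox Hdac2 was present its peaks were narrow, at a median of 816 bp in the regions and 992.5 bp in the comparison. The Hd2lox Hdac2 peaks of the comparison regions had a median of 903 bp, below the Hdac1 peaks of the same regions.

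**Figure D2:**
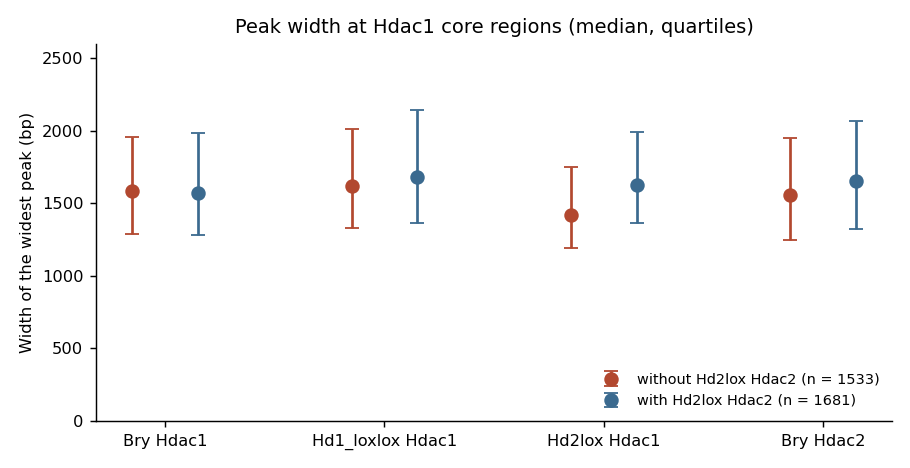
Width in bp (y axis) of the widest peak per region in the 3 Hdac1 lists and the Bry Hdac2 list (x axis), as median (point) and quartiles (bars over regions), for core regions without (red) and with (blue) Hd2lox Hdac2. For Bry Hdac2 only the 1395 and 1552 regions with a peak count. The medians are 1422 and 1625 bp in Hd2lox Hdac1 and 1584 and 1573 bp in Bry Hdac1.

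The same contrast was seen when the core was divided by width into 4 groups of equal size. Among the 804 core regions with the narrowest Hd2lox Hdac1 peaks, 65.5% lacked Hd2lox Hdac2 (62.2 to 68.8). The share was 45.6% in the next group, 43.6% in the third and 36.1% (32.8 to 39.4) among the widest. By Bry Hdac1 width it stayed between 46.4% and 49.9% in all 4 groups. By Hd1_loxlox Hdac1 width it went from 50.7% among the narrowest to 42.0% among the widest, and by Bry Hdac2 width from 53.1% to 41.1%. The gradient was thus steepest for the Hdac1 list of the line whose Hdac2 list made the choice. Of the merged regions with an Hd2lox Hdac1 peak, 43.3% had an Hd2lox Hdac2 peak, against 28.4% of those with Hd1_loxlox Hdac1 and 25.9% of those with Bry Hdac1. The part of peak size or depth of the Hd2lox libraries in the choice of regions was not tested. Leaving out the requirement of an Hd2lox Hdac1 peak raised the number of regions from 1533 to 3837, or 69.4% of the core so defined. Leaving out the narrowest 25% of every list lowered it to 985.

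**Figure D3:**
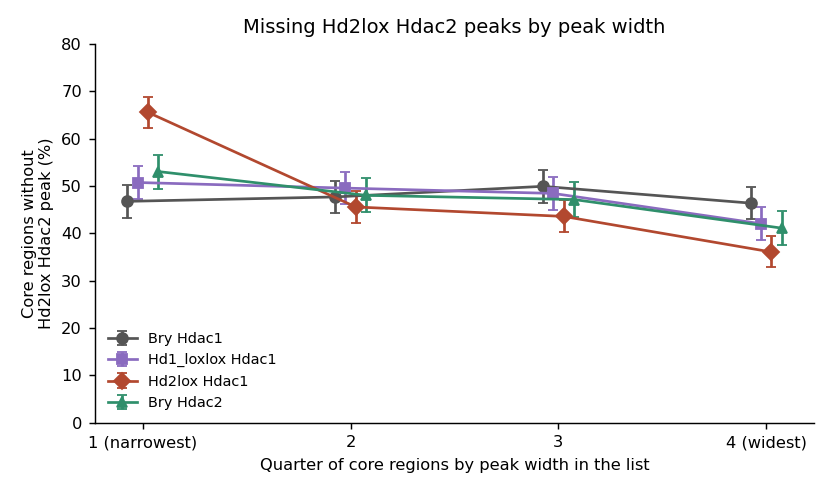
Share of Hdac1 core regions without an Hd2lox Hdac2 peak (y axis, percent) in 4 equal groups by peak width (x axis, narrowest to widest), formed separately for each of 4 lists, with Wilson 95% intervals for counting error. By Hd2lox Hdac1 width the share falls from 65.5% to 36.1%, and by Bry Hdac1 width it lies between 46.4% and 49.9%.

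At annotated starts the peaks reached further into the gene than upstream of it. Of 1575 distinct starts in the regions, 95.5% were covered by a Bry Hdac1 peak, 96.4% by Hd1_loxlox Hdac1, 92.9% by Hd2lox Hdac1 and 87.0% by Bry Hdac2. The Bry Hdac1 peak reached a median of 677 bp upstream and 891 bp downstream of the start, Hd1_loxlox Hdac1 669 and 963 bp, and Hd2lox Hdac1 539 and 862 bp. The downstream reach was the longer at 66.3%, 71.4% and 72.2% of covered starts in these 3 lists, and at 61.2% for Bry Hdac2, which reached 713 and 858 bp. The shorter Hd2lox Hdac1 peaks of the regions were thus shorter on each side of the start than those of the other lines. In the comparison regions Hd2lox Hdac1 reached 572.5 bp upstream and 991.5 bp downstream, and the Hd2lox Hdac2 peak 287 and 647.5 bp.

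**Figure D4:**
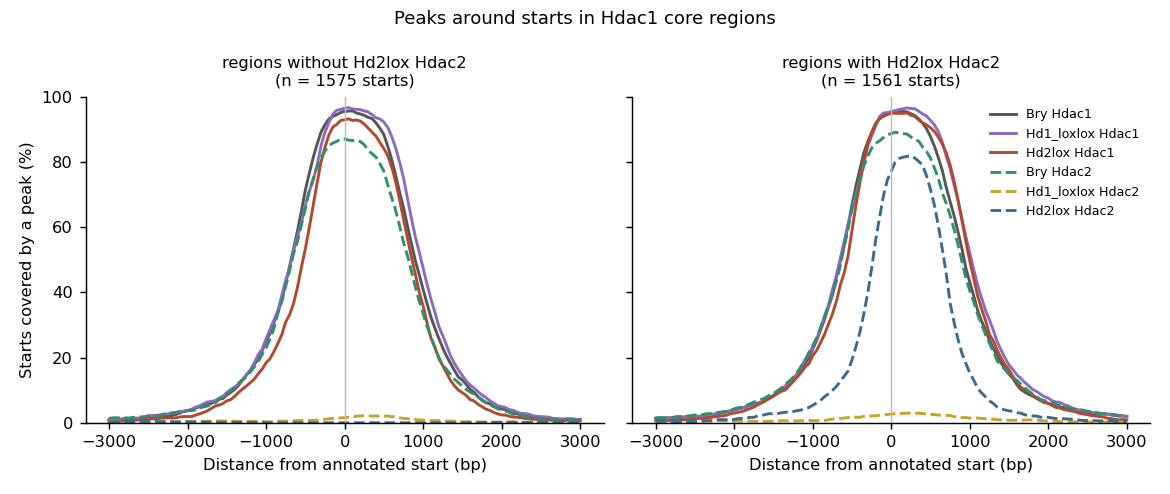
Share of annotated starts covered by a peak of each list (y axis, percent) against distance from the start in bp (x axis, positive into the gene), for 1575 starts in core regions without Hd2lox Hdac2 (left) and 1561 in those with it (right). Solid lines are Hdac1 and dashed lines Hdac2. At the start 87.0% are covered by Bry Hdac2 on the left, and 77.1% by Hd2lox Hdac2 on the right, where that list centres downstream of the start.

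Most of the regions were at genes. Within 1000 bp of either outer end of a protein-coding gene lay 1332 regions, or 86.9% (85.1 to 88.5), against 86.6% of the comparison regions, a difference of 0.273 points (-2.08 to 2.61). A further 166 were inside a gene away from its ends and 35, or 2.28%, were outside genes, against 1.25% of the comparison regions. Leaving out the requirement of Hd2lox Hdac1 turned the difference at gene ends to -2.56 points. Outside chromosome 18, which has no start annotation here, 1181 of 1497 regions and 1237 of 1626 comparison regions covered an annotated start. Starts on both strands were covered by 134 of these 1497 regions, or 8.95% (7.61 to 10.5). Their order and the distance between them were not checked, so these need not be bidirectional promoters. In the comparison regions the share was 5.10% (4.14 to 6.28), with 83 of 1626. This difference of 3.85 points had an interval of 2.06 to 5.68. It kept its sign under 10 alternative settings, at 2.41 to 6.39 points, and regions on one genome are not replicates. By chromosome, the share of core regions without Hd2lox Hdac2 was highest on chromosome 14 (65 of 110, 59.1%) and lowest on chromosome 18 (36 of 91, 39.6%).

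The 135 regions with no Hdac2 peak in any line were narrower than the rest, with median Hdac1 widths of 1332 bp for Bry, 1426 for Hd1_loxlox and 1319 for Hd2lox, and 90.4% of them were at gene ends. The widest by rank was at Rpl23 (chr11:97781047-97784214, region coordinates on mm10 here and below), with Hdac1 peaks of 1993 bp in Bry, 1933 in Hd1_loxlox and 2064 in Hd2lox. Its peaks were of similar width in all 3 lines. At Dazap2, whose product is a small proline-rich protein, the widths were 2309, 2412 and 1645 bp in the same order. At Trps1, a GATA-type zinc finger repressor, they were 1879, 2109 and 1914 bp. Dazap2 was narrower in Hd2lox than in the other lines, whereas Trps1 was not.

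A region between Naa50 and Atp6v1a, whose product belongs to the vacuolar proton pump, had Hdac1 widths of 2399, 2362 and 1556 bp in Bry, Hd1_loxlox and Hd2lox. Other highly ranked regions of the class also lay at the ends of neighbouring genes. They were at Cert1 with Polk, a translesion DNA polymerase, and at Exosc8, an RNA exosome subunit, with Alg5. Further ones were at Safb2 with Safb, and at Tbk1, a kinase of innate immune signalling, with the tRNA exporter gene Xpot. These regions were taken by Hdac1 width rank, and whether such regions were frequent in the class was not tested. The Tbk1 region had its widest peak in Hd2lox, at 2660 bp, against 1878 bp in Bry and 1536 in Hd1_loxlox. The other named regions of the class were at Hnrnpa3, an RNA-binding protein gene, with 1671, 2903 and 1634 bp, and at Adamts3, a procollagen protease gene, with 2364, 2349 and 1428 bp. Low width in Hd2lox was therefore not a property of every region without Hdac2.

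Regions were ranked by Hdac1 width over the 3 lists. The highest ranked regions with Bry Hdac2 therefore had wide Hdac1 peaks by construction. At Vasp (chr7:19269259-19273433) the Hdac1 peaks were 3375 bp wide in Bry, 3842 in Hd1_loxlox and, for Hd2lox, 3325, and the Bry Hdac2 peak was 1965 bp. At Sh2b3 they were 4367, 3698 and 2963 bp, with 2730 bp of Bry Hdac2. At Ptma, which encodes the histone-binding protein prothymosin alpha, they were 4235, 4791 and 2633 bp, with 2852 bp. All 3 genes combined Hdac1 peaks wider than 2500 bp in every line with no Hd2lox Hdac2 peak. Spry2, an inhibitor of receptor tyrosine kinase signalling, had Hdac1 widths of 4980, 4885 and 2604 bp and the widest Bry Hdac2 peak of the named genes, at 5082 bp. A region by Tmem88, with the H3K27 demethylase gene Kdm6b, Cyb5d1 and Naa38 as neighbours, had 3950, 4644 and 2647 bp, with 4313 bp of Bry Hdac2. Spry2 and the Tmem88 region were narrower in Hd2lox than in the other lines.

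The other highest ranks were at Dyrk1a, a protein kinase, at Tfap4, a helix-loop-helix factor, at Ajuba, a LIM domain adaptor, and at H2-DMa, where the neighbour is the bromodomain protein gene Brd2. Hdac1 widths in Bry, Hd1_loxlox and Hd2lox were 3333, 3349 and 2909 bp at Dyrk1a, 3250, 3564 and 2683 bp at Tfap4, 3188, 3413 and 2703 bp at Ajuba and 3179, 6595 and 2695 bp at H2-DMa. At each of these 4 the Hd2lox peak was the narrowest.

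Of the 62 regions with an Hd1_loxlox Hdac2 peak, 79.0% were at gene ends (67.4 to 87.3), an interval that includes the 86.9% of all the regions. The highest ranked was at Erf, an ETS domain repressor, with Hdac1 widths of 3366, 3318 and 2874 bp, a Bry Hdac2 peak of 2943 bp and an Hd1_loxlox Hdac2 peak of 1057 bp. Fosl2, an AP-1 subunit, had 2418, 4326 and 2390 bp of Hdac1, with 3218 bp of Bry and 1389 bp of Hd1_loxlox Hdac2. In each of them the Hd1_loxlox Hdac2 peak was the narrowest of the 5, as it also was at the H4K20 methyltransferase gene Kmt5b (1164 bp), at Klf16 (1213 bp) and at Rev3l (619 bp), the catalytic subunit of DNA polymerase zeta. The 3 regions with Hd1_loxlox Hdac2 alone were at Nploc4, at Arhgef1 with Cd79a, and at chr11:62076630-62078072 away from gene ends.

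Of the regions away from gene ends, the widest was inside Hivep2 (chr10:13964070-13968155), a zinc finger factor gene, with Hdac1 widths of 3745, 3632 and 2398 bp and a Bry Hdac2 peak of 4086 bp. The next were inside Fam78a (chr2:32082244-32085233), at chr14:61680594-61683504 and chr18:35886897-35890557 outside protein-coding genes, and inside Auts2 (chr5:131536215-131539637). All 5 had Bry Hdac2, between 986 bp in Fam78a and 4086 bp in Hivep2. The regions also held 20 of 1005 annotated miRNA hairpins, in 18 regions (1.17%), against 14 comparison regions (0.833%). They included the neighbouring hairpins of Mir132 and Mir212, and Mirlet7i, Mir9-3 and Mir219a-1.

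The regions were at the ends of 1612 protein-coding genes, or 7.37% of 21887, and the comparison regions at 1671, or 7.63%. Of the 3270 genes at either, 49.3% were at the regions without Hd2lox Hdac2 and 13 were at both. Counts in 30 gene lists are read against these shares, with no test, since the lists were chosen with earlier results known. The shares hold for the main setting and were not computed for the alternatives. Leaving out the requirement of Hd2lox Hdac1 gave 3837 regions, so higher counts there come with more regions. The lists themselves are described in turn by role.

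Of the genes of intracellular signalling in the core, most were at regions without Hd2lox Hdac2. Of 37 genes of G proteins and the MAP kinase cascade, 17 (45.9%) were at such regions and 6 (16.2%) at comparison regions. The 17 included the G protein alpha subunits Gna13, Gnaq, Gnai2 and Gna11, the gamma subunit Gng5, the small GTPases Rhoa, Hras and Rap1b, the adaptor Grb2, the Ras exchange factor Sos1, and the kinases Map2k1, Map2k2, Map2k3 and Map3k7. The 6 were Cdc42, Rac1, Rap1a, Gnb1, Mapk8 and Mapk14. At Rhoa the Hdac1 widths were 2573 bp in Bry, 2275 in Hd1_loxlox and 1538 in Hd2lox, with a Bry Hdac2 peak of 1110 bp. At Gna13 they were 2764, 2435 and 1714 bp, with 1699 bp. The Hd2lox peak was the narrowest Hdac1 peak at both genes, but not at Gnaq, with 2159, 1822 and 1961 bp. Of the 17 genes, 15 had Bry Hdac2, the exceptions being Grb2 and Sos1. Over 12 alternative settings the counts ran from 12 to 18 without and from 3 to 8 with Hd2lox Hdac2.

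Genes of vesicle traffic and lysosomes had a like split, with 12 of 40 (30%) at the regions and 3 at comparison regions. The 12 included the membrane traffic GTPases Rab1a, Rab5a, Rab6a, Rab10 and Rab14, the Arf GTPases Arf1 and Arf3, the COPII coat genes Sec24a and Sec31a, and the proton pump subunits Atp6v1a, Atp6v0b and Atp6v1h. The 3 were Arf6, Lamp1 and Rab7. At Rab10 the widths were 2374, 1702 and 2494 bp, so here the Hd2lox Hdac1 peak was the widest. At Rab1a they were 2494, 3802 and 1335 bp. Without the requirement of Hd2lox Hdac1 the count rose to 24, against 3.

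Of the Notch pathway genes in the core, most were at comparison regions. Of 18 genes, 1 was at these regions and 8 were at comparison regions. The 1 was Hey1, a repressor induced by Notch, with Hdac1 widths of 1240, 1473 and 1478 bp and 1624 bp of Bry Hdac2. The 8 were the receptors Notch1, Notch2 and Notch4, the ligands Jag1 and Jag2, the coactivator Maml1, and the targets Hes1 and Nrarp. Leaving out the requirement of Bry Hdac1 moved the count from 1 to 4, with 8 at comparison regions, and leaving out Hd2lox Hdac1 moved it to 3.

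TGF-beta and BMP genes were split about evenly. Of 40 TGF-beta genes, 9 (22.5%) were at the regions and 7 at comparison regions. The ligand gene Tgfb1, Ltbp1 for a binding protein of the latent ligand, and the type I receptor gene Tgfbr1 were with Hd2lox Hdac2, and the type II receptor Tgfbr2 and the receptors Acvr1b and Acvr2a were without it. Of the signal transducers, Smad3 and Smad4 were without, as were the repressors Ski, Skil and Tgif2, while the inhibitory Smad7 was with it. Skil had Hdac1 widths of 3254, 3598 and 2351 bp and 2064 bp of Bry Hdac2. Smad3 had 2591, 1443 and 3179 bp, with 2355 bp. Hd2lox thus had the narrowest Hdac1 peak at Skil and the widest at Smad3. Of 21 BMP genes, 6 were at the regions, with the ligand Bmp6, its antagonist Nog, the receptors Bmpr1a, Bmpr2 and Acvr1, and the transducer Smad5, and 5 were at comparison regions.

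Among 30 haematopoietic transcription factor genes, 5 were in each group. Those without Hd2lox Hdac2 were Tal1, needed for blood formation from haemogenic endothelium, Cbfb, the partner of Runx1, and Myb, Etv6 and Bcl11a. Those with it were Cebpa, Cebpb, Hhex, Kmt2a and Zfpm1. The Tal1 region (chr4:115056050-115060220) had Hdac1 widths of 2146 bp for Bry, 1913 for Hd1_loxlox and 1532 for Hd2lox, beside a Bry Hdac2 peak of 1343 bp, and its nearest Hd2lox Hdac2 peak was 2647 bp away. At Myb they were 3693, 3199 and 1273 bp, with 2796 bp of Bry Hdac2. At Bcl11a they were 2485, 2543 and 980 bp, with 5001 bp. These 3 genes had their narrowest Hdac1 peak in Hd2lox. Leaving out Hd2lox Hdac1 raised the count from 5 to 11.

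Of 34 endothelial genes, 4 were at the regions, the receptors Flt1 and Ephb4, the transcription factor Sox18 and the ETS factor Elk3, and 3 were at comparison regions. At Sox18 the Hdac1 widths were 1320, 2149 and 2943 bp and at Flt1 1904, 2187 and 1468 bp, so the order of the lines was not the same. The count rose from 4 to 9 without the requirement of Hd2lox Hdac1. No gene of the 26 blood cell genes was in either group, and of 28 cardiac, smooth muscle and mesenchymal genes 1, the repressor gene Zeb2, was at the regions and 3 were at comparison regions. Without the requirement of Hd2lox Hdac1 these counts at the regions were 3 and 4, and without that of Bry Hdac1 0 and 2.

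The genes of Hdac1 and Hdac2 complexes included Hdac2 itself. Its own region (chr10:36973117-36976000) had Hdac1 widths of 2302 bp in Bry, 1784 in Hd1_loxlox and 2187 in Hd2lox, with a Bry Hdac2 peak of 1456 bp, and lacked Hd2lox Hdac2, whereas the region at Hdac1 had it. In all 6 of 34 such genes were at the regions, also the CoREST subunits Rcor1 and Phf21a, the NuRD subunits Gatad2a and Gatad2b and the histone chaperone Rbbp7, and 10 were at comparison regions, among them Kdm1a, the demethylase of CoREST. The count of 6 fell to 3 without the narrowest 25% of peaks and rose to 15 without the requirement of Hd2lox Hdac1. Of 33 Polycomb and Trithorax genes 10 were in each group, those without Hd2lox Hdac2 including the Polycomb subunits Suz12, Ezh2 and Bmi1 and the methyltransferases Setd1a and Kmt2b. Of 29 chromatin remodeller genes 8 were at the regions, among them Bptf, Srcap and Smarca4, and 12 at comparison regions.

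Genes of G1 control were in both groups. At the regions were 9 of 29 genes, the kinase Cdk6, the cyclins Ccne1 and Ccne2, the inhibitors Cdkn1b, Cdkn2a and Cdkn2c, the pocket proteins Rb1 and Rbl1, and E2f4. At comparison regions were 8, the phosphatase Cdc25a and E2f1, E2f2, E2f3, E2f5, E2f6, E2f7 and E2f8. The placing of the E2f genes was noticed after the values were seen. Cdk6 had Hdac1 widths of 3098, 3842 and 1785 bp and 3983 bp of Bry Hdac2, and Rb1 2272, 1715 and 1350 bp and 2122 bp. The Hd2lox peak was the narrowest Hdac1 peak at both. At Ccne2, with 2253, 1532 and 2005 bp, and at Ccne1, with 1636, 2017 and 1790 bp, it was not. Without the narrowest 25% of peaks the count at the regions was 5.

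Transcription factor families of rapid response were in both groups. Of 33 immediate early and stress response genes, 6 were at the regions, Fosl2, Jun, Egr1, Egr2, Egr3 and the phosphatase Dusp1, and 5 at comparison regions. Jun had Hdac1 widths of 4151, 3636 and 1657 bp and 1391 bp of Bry Hdac2, and Egr2 3508, 1947 and 2859 bp and 2723 bp. Of 20 Kruppel-like and Sp factor genes, 4 were at the regions (Sp3, Klf7, Klf11 and Klf16) and 6 at comparison regions, and Klf7 had no Bry Hdac2. Of 20 ETS factor genes, 5 were at the regions (Erf, Elf2, Etv5, Etv6 and Elk3) and 3 at comparison regions. The count of 397 Zfp genes was 28 in each group, 7.05%, close to that of all genes. Without the requirement of Hd2lox Hdac1 the counts at the regions rose to 23 immediate early, 7 Kruppel-like and Sp, 6 ETS and 62 Zfp genes.

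The lists of housekeeping genes were represented to different degrees. Of 88 ribosomal protein genes 7 (7.95%) were at them, of 78 mitochondrial ribosomal protein genes 5, of 86 oxidative phosphorylation genes 6, of 49 proteasome genes 4, of 34 aminoacyl-tRNA synthetase genes 5, of 56 translation initiation factor genes 11, of 40 spliceosome genes 8 and of 35 genes of DNA replication and mitosis 2. The counts at comparison regions were 5, 1, 2, 2, 3, 8, 5 and 0 in the same order. As shares of their lists, the ribosomal (7.95%), mitochondrial ribosomal (6.41%), oxidative phosphorylation (6.98%), proteasome (8.16%) and replication and mitosis genes (5.71%) were near the 7.37% of all genes. The shares of aminoacyl-tRNA synthetase (14.7%), initiation factor (19.6%) and spliceosome genes (20%) were above it. Each of the 8 lists had more genes at these regions than at comparison regions. Leaving out the requirement of an Hd2lox Hdac1 peak raised each of these counts at regions without Hd2lox Hdac2. In the order first given they were then 43, 32, 20, 22, 17, 25, 22 and 19. The number of regions itself rose to 3837, and the share of all genes was not computed for this setting. The counts with Hd2lox Hdac2 were then 5, 1, 2, 2, 3, 8, 5 and 1. By construction, the added genes had regions with Bry and Hd1_loxlox Hdac1 peaks and no Hd2lox Hdac1 peak. Without the share of all genes, the rise cannot be read as particular to these lists.

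Of the remaining lists, 6 of 37 ubiquitin pathway genes were at the regions and 11 at comparison regions, and the count of 6 rose to 17 without the requirement of Hd2lox Hdac1. The 6 included Cul3, a ligase scaffold gene with no Bry Hdac2. Of 29 interferon response genes 2, Tbk1 and Jak2, were at the regions and 3 at comparison regions, and without Hd2lox Hdac1 the count of 2 was 6. None of 39 Hox genes, 62 replication-dependent histone genes and 1110 olfactory receptor genes was in either group. Without the requirement of Hd2lox Hdac1, 4 histone genes were at the regions, and without that of Bry Hdac1, 1 Hox gene was.

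**Figure D5:**
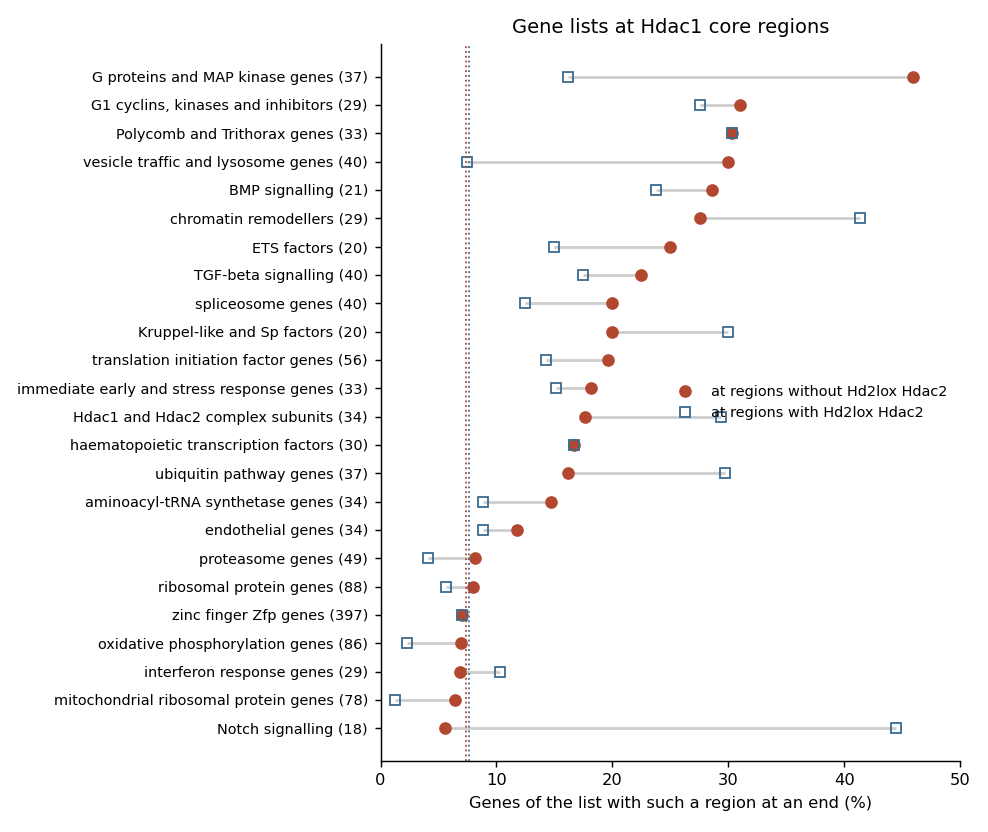
Share of the genes of each list (y axis, number of genes in brackets) that had an Hdac1 core region without (red circles) or with (blue squares) Hd2lox Hdac2 at an end (x axis, percent), for lists with at least 5 genes in the 2 groups together. Dotted lines mark the shares of all protein-coding genes, 7.37% and 7.63%. The widest gaps are those of G proteins with MAP kinases (45.9% against 16.2%) and, in the opposite direction, Notch signalling (5.56% against 44.4%).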

How the data were processed

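ChIP-seq with Hdac1 and Hdac2 antibodies was done in 3 lines of haemogenic endothelium, with 1 library per line and antibody. The authors deposited 1 peak list per ChIP library, with chromosome, start and end and no other value. Tools per the submitters' processing notes were bcl2fastq, Bowtie2 2.2.9, SAMtools 1.3.1 and MACS2 2.1.1.20160309, with build mm10. Threshold and control of the calls: not given in the sources used here. Depth is unknown, and no input data were used. The deposited name of the Hdac1 list of Hd2lox reads Hd2loxlox, and it was taken as Hd2lox, the line in its sample's label.

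The lists held 46202 peaks, and positions are printed 1-based. Peaks were merged from 1 bp of overlap. The width of a region in a list is that of its widest peak there. The rank of a region is the mean, over the 3 Hdac1 lists, of the percentile of that width within the list. A gene end is a window of 1000 bp either side of an outer end of a protein-coding gene in RefSeq (GRCm38.p6, without strand or inner promoters). RefSeq promoters of 300 bases gave starts and strand, with none on chromosome 18, which is left out of start counts. CpG observed over expected is the CpG count times window length over the product of C and G counts. Genes were named by rank: the top 10 regions without Hdac2, the top 10 with Bry Hdac2, the top 5 with Hd1_loxlox Hdac2, up to 5 of each list and the top 5 away from gene ends. Other genes of a list are named without widths. Some genes that these rules name are not reported here. The members, lists and tests were chosen with earlier results of these data known, and the pattern for ribosomal protein genes was corrected afterwards to leave out S6 kinases.

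Shares have Wilson 95% intervals. Widths were compared over lines with an exact sign-flip permutation test. Scripts were tested on simulated data and ran in Python 3.11.15 with numpy 2.4.6, pandas 2.3.3, scipy 1.17.1 and matplotlib 3.10.9. The alternatives were other overlap rules, lists without their narrowest 25% of peaks, distance to Hd2lox Hdac2, leaving out each Hdac1 line, other gene windows and other width measures.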

Additional observations from a re-analysis of the deposited data

Results flagged for a closer look

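The median Hdac1 width of the regions, minus that of core regions with Hd2lox Hdac2, was 11 bp in Bry and -203 bp in Hd2lox. The opposite signs drew attention, and the difference between the lines was not tested, since each line has 1 Hdac1 library. The sign in Bry turned to -25.3 bp with means in place of medians.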

How the results depend on the processing

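Of the recomputed values other than gene list counts, most stayed within the limits set for them and 13 moved. Among them only the gene end difference, with a main interval that included 0, changed sign, from 0.273 to as low as -2.56 points. Dropping the narrowest 25% of peaks gave 985 regions, 46.0% of the core, and a GC difference of -0.667 points. Leaving out each Hdac1 line in turn gave 1778 to 3837 regions and shares of 46.7% to 69.4%. It gave differences of -8.14 to -0.910 points for Bry Hdac2 peaks, -2.56 to 0.221 for gene ends, -211 to -47.5 bp for Bry Hdac2 width and -6.33 to -1.67 points for GC. In each of these the far value was that without Hd2lox Hdac1, which adds regions by its construction; the cause was not tested. The mean Hdac1 width difference was below 0 under all 13 alternatives, with exact permutation p between 0.25 and 1. Of the gene list counts, 676 were within 1.5 times their main value and 44 moved. GC over whole regions was not run, since no genome sequence was used here. The width test pairs both kinds of region within each line by its construction. Unknown depth and 1 library per line and antibody limit every share.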
